A study of Mus musculus with 37 samples.

Results

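Liver RNA of 12 female mice (XX), 6 carrying the Y665F substitution of STAT5B and 6 wild type (WT), was compared here. They are 12 of the 37 livers of a series on substitutions in the SH2 domain of STAT5B and on cholesterol and lipid metabolism. The members were chosen by the genotype in the sample titles and by 0 counts of the Y-linked gene Ddx3y in each library, with the genotype never read from the counts. All mice were C57BL/6 and 2 months old, and whole liver was sequenced after removal of ribosomal RNA. WT mice carried the unaltered Stat5b gene. Y665F mice carried phenylalanine in place of tyrosine at the residue Y665, and whether on 1 or both alleles is not given in the sources used here. Each library stands for 1 sample, and nothing more is given about separate animals or litters, so p-values measure the spread between these samples. Further groups used below were Y665F males (9 libraries), WT males (6) and Y665H females (6), in which histidine stands at the same residue; the age and strain were the same.

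STAT5B is a transcription factor that is phosphorylated by JAK2 when growth hormone binds its receptor on hepatocytes. Its SH2 domain docks onto the phosphorylated receptor and joins a pair of STAT5 molecules, which then bind DNA at a short palindromic motif. In rodent liver the timing of growth hormone release differs between the sexes, and STAT5B is known as the main factor that turns this difference into male-biased and female-biased gene expression.

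The residue Y665 lies in the SH2 domain and is encoded by exon 16 of Stat5b on chromosome 11 (mm10, minus strand, bases 100787291 to 100787293). The coding stretch around it is shown from base 1957 to base 2031 of the coding sequence of the transcript Stat5b-201 in GENCODE M21, which encodes 786 residues. Capitals mark the tyrosine codon that the substitution alters.
Stat5b: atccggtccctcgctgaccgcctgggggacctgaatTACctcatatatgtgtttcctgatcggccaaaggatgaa

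The STAT motif (TTCNNNGAA, which reads the same on both strands) was searched in the 250 bases before each RefSeq start site of GRCm38.p6. It was found in 7.43% of the 11315 tested genes that matched a promoter. The share was 7.16% among genes higher in Y665F females and 6.96% among genes lower there. The promoters below show that the same letters stand before genes that rose, fell or did not pass the test. They were chosen after the values were seen, and a match is a description of the letters only. Capitals mark the motif. The A1bg promoter (chr15:60921271-60921520, minus strand) and 1 of 3 Prlr promoters in the table (chr15:10223656-10223905, plus strand) precede genes that rose in Y665F females. The other 2 of Prlr hold no match. One of the 2 Slc10a1 promoters in the table (chr12:80968706-80968955, minus strand) precedes a gene that fell, and the other holds no match. A Bcl6 promoter (chr16:23981284-23981533, minus strand) holds 3 matches and precedes a gene that did not pass the test.
A1bg: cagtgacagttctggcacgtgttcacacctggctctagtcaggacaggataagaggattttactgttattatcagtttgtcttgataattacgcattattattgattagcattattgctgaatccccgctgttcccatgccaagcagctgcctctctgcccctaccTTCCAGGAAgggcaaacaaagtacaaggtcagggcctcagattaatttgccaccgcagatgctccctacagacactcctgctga
Prlr: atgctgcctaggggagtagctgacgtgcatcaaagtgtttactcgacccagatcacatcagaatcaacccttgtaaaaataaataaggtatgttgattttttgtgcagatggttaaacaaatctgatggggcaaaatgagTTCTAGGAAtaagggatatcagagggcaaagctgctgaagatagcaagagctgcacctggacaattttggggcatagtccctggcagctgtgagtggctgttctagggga
Slc10a1: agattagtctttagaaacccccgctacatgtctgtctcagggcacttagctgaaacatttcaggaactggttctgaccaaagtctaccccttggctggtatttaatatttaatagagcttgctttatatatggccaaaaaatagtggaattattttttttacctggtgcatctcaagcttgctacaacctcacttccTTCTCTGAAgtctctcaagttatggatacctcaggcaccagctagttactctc
Bcl6: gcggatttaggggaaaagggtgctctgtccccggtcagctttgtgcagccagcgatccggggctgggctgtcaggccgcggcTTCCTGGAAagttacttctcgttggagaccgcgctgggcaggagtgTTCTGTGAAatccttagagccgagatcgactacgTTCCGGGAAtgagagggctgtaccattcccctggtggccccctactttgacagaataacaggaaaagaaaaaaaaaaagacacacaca

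The depth of the libraries was 25557377 to 40864173 gene counts in WT and 24388434 to 35860394 in Y665F females. A set of 10 genes, the most abundant in each library, held 20.0% ± 1.83 (SD, n = 6) of these in WT and 30.1% ± 1.93 (SD, n = 6) in Y665F livers (exact 2-sided permutation test, p = 0.00216, the smallest that 6 against 6 allows, 0.00649 adjusted over 3 library measures). Alb alone took 8.46% ± 0.556 in WT and 16.3% ± 0.551 in Y665F livers (SD, n = 6 each). Reads in no annotated gene took 11.6% ± 1.97 and 13.9% ± 1.21 (exact permutation p = 0.0390, adjusted 0.0584). A principal component analysis of the 12 libraries placed all Y665F livers apart from all WT livers on the first component, which held 55.8% of the variance.

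Of 15152 genes tested, 6219 (41%) differed between Y665F and WT females at an adjusted p under 0.05 (edgeR quasi-likelihood test, Benjamini-Hochberg), 2695 higher (17.8%) and 3524 lower (23.3%). These genes are called below. Most changes were small: 759 called genes were at least 1 log2 unit higher and 262 at least 1 lower, and 93 and 39 passed 3 log2 units. The 6 Y665F libraries did not overlap the 6 WT libraries for 3010 genes (19.9%), with Y665F above for 1378 (9.09%) and below for 1632 (10.8%). The balance of directions depended on the scaling. With TMM scaling 43.3% of the called genes were higher and the median of all genes was -0.02 log2; on total counts 7856 genes were called, 22.0% of them higher, and the median was -0.15 log2. Changes below are therefore relative to the TMM scale, on which levels are given as CPM (gene counts scaled to a common library size). CPM are not divided by gene length, so they are not compared between genes.

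**Figure D1:**
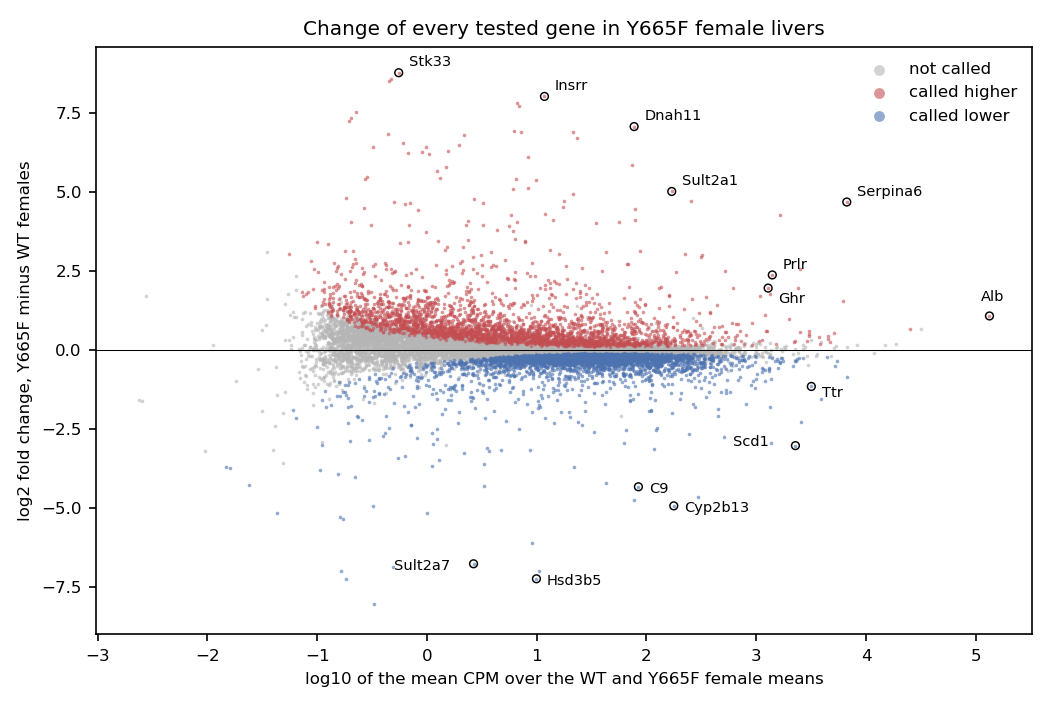
Each point is a tested gene, with the log10 of its mean CPM over both female groups on the horizontal axis and the log2 fold change (Y665F minus WT females) on the vertical axis. Red points were called higher (2695), blue points lower (3524) and grey points were not called; the circled genes include Alb at the far right, and genes past 3 log2 units number 93 above and 39 below.

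The receptors of the growth hormone pathway rose in these livers, and the genes of its signalling core did not pass the test. Of 26 tested genes of the growth hormone and STAT5 axis, 7 were called higher and 1 lower (5 lower on total counts), with a median of 0.09 log2. In this list 30.8% of genes were called, against 41% of all tested genes. Ghr (chr15:3317760-3583492, minus strand), the growth hormone receptor, measured 457, 535 and 558 CPM (lowest, median and highest) in WT and 1863, 2031 and 2287 CPM in Y665F females. It rose by 1.96 log2 ± 0.14 (SE, adjusted p = 5.85e-14), and the groups did not overlap. Prlr, the prolactin receptor and a female-biased liver gene, measured 352, 458 and 519 CPM in WT and 2149.8, 2368 and 2603 CPM in Y665F females. Its rise was 2.38 log2 ± 0.19 (adjusted p = 2.02e-12), again without overlap.

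Stat5b itself did not differ detectably: the WT livers measured 72.5, 81.9 and 104 CPM and the Y665F livers 76.8, 80.8 and 99.0 CPM (0.02 log2 ± 0.07, adjusted p = 0.840). Counts per gene do not separate the substituted from the unaltered transcript, so they do not check the genotype. Stat5a (0.04 log2 ± 0.10) and Jak2 (-0.03 log2 ± 0.06) did not pass the test either. The feedback inhibitors that STAT5 is known to induce were not called. Socs2 measured 28.7, 43.8 and 69.8 CPM in WT and 50.5, 54.3 and 76.6 CPM in Y665F females (0.40 log2 ± 0.33, adjusted p = 0.344), with overlap. Cish measured 26.0, 32.1 and 60.0 CPM in WT and 22.3, 30.8 and 56.8 CPM in Y665F females (-0.17 log2 ± 0.50, adjusted p = 0.813).

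The secreted products of the axis split. Igf1, the main growth factor that growth hormone induces in liver, measured 626, 687 and 825 CPM in WT and 459.7, 614 and 777 CPM in Y665F females (-0.19 log2 ± 0.10, adjusted p = 0.138). Without Y665F replicate 3 it was called (-0.27 log2, edgeR adjusted p = 0.0337). Igfals, which stabilises circulating IGF1, did not pass the test either (-0.14 log2 ± 0.09). Igfbp1, an IGF-binding protein that fasting is known to raise, measured 5.01, 16.4 and 40.8 CPM in WT and 40.2, 115 and 209.8 CPM in Y665F females. It rose by 2.72 log2 ± 0.46 (adjusted p = 1.09e-05), and the lowest Y665F liver fell just within the WT range. Igfbp2 fell by 0.51 log2 ± 0.16 (adjusted p = 0.0122). Among transcription factors of the axis, Bcl6, a repressor that opposes STAT5 at shared sites, was close in both groups (11.0, 11.2 and 16.0 CPM against 11.4, 13.4 and 17.7 CPM, 0.16 log2 ± 0.29, adjusted p = 0.684). Cux2, a female-biased repressor of male-biased genes, measured 48.1, 78.1 and 104 CPM in WT and 224, 242 and 276 CPM in Y665F females, a rise of 1.71 log2 ± 0.32 (adjusted p = 4.24e-05) with no overlap.

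**Figure D2:**
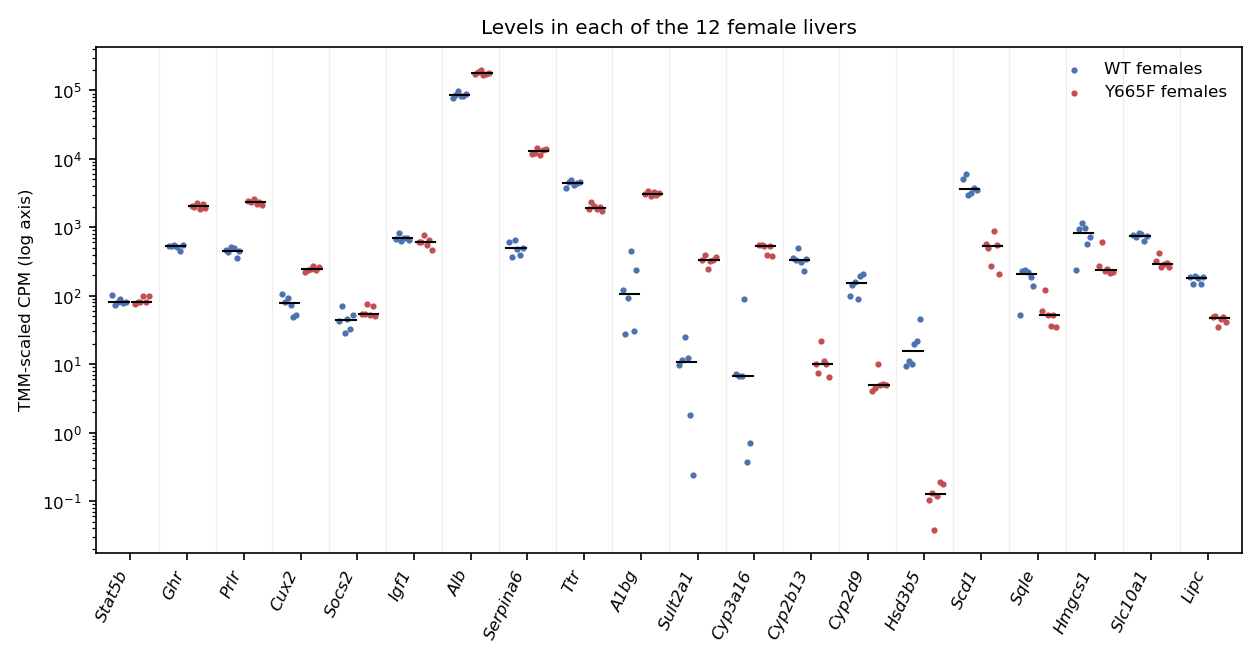
Points are the TMM-scaled CPM (log axis) of 20 genes in each of the 6 WT (blue) and 6 Y665F (red) female livers, with the group median as a black line. Stat5b, Socs2 and Igf1 overlap between the groups, whereas Ghr, Prlr, Alb, Serpina6, Cyp2b13, Cyp2d9 and Hsd3b5 do not; A1bg, Sult2a1 and Cyp3a16 spread far more among the WT than among the Y665F livers.

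The largest rises were in genes that WT livers barely expressed. Stk33, a serine/threonine kinase gene, had 0 counts in all 6 WT livers and 0.898, 1.15 and 1.25 CPM in Y665F livers, at least 72.1-fold higher when 3 counts over the WT group are taken as the floor. Insrr, the insulin receptor-related receptor, measured 0.0253, 0.0952 and 0.154 CPM in WT and 14.5, 22.5 and 34.5 CPM in Y665F females, a rise of 8.03 log2 ± 0.42 (adjusted p = 2.63e-17). Dnah11, an axonemal dynein heavy chain, measured 0.737, 1.09 and 1.63 CPM in WT and 117, 151 and 192 CPM in Y665F females (7.08 log2 ± 0.44, adjusted p = 2.82e-15). All 3 genes separated the groups without overlap.

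A gene of nerve cells was among the same set. Nptx1, neuronal pentraxin 1, measured 0.123, 0.410 and 0.810 CPM in WT and 33.0, 44.2 and 70.5 CPM in Y665F females (6.70 log2 ± 0.44, adjusted p = 1.1e-14). The others that the naming rule gives were the adrenergic receptor Adra2c (7.74 log2), the organic cation transporter Slc22a2 (6.95 log2), the adenylyl cyclase Adcy1 (6.91 log2), the actin regulator Cap2 (6.91 log2) and the collagen Col22a1 (6.81 log2). Each of these 5 was called and separated the groups.

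Other genes fell to near 0 in Y665F livers. Hsd3b5 (chr3:98618634-98630252, minus strand), a male-biased steroid dehydrogenase, measured 9.54, 15.6 and 46.2 CPM in WT and 0.0372, 0.127 and 0.187 CPM in Y665F females. It fell by 7.25 log2 ± 0.74 (adjusted p = 6.07e-10). Sult2a7, a sulfotransferase, measured 3.25, 5.05 and 8.23 CPM in WT and 0, 0.0325 and 0.156 CPM in Y665F females (-6.77 log2 ± 0.72, adjusted p = 1.98e-09). Without Y665F replicate 5 its value was -7.81 log2. Adgrf1, an adhesion G protein-coupled receptor, measured 16.0, 18.2 and 20.0 CPM in WT and 0.0902, 0.217 and 0.523 CPM in Y665F females (-6.13 log2 ± 0.35, adjusted p = 4.47e-16). Groups did not overlap for any of the 3. Hspb1, a small heat shock protein, fell by 3.60 log2 ± 0.33 (adjusted p = 5.05e-11).

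Plasma proteins that the liver secretes changed in both directions. Of 37 tested genes of this list, 15 were called higher and 6 lower, with a median of 0.17 log2, and on total counts 10 were called higher and 10 lower. Alb, serum albumin, measured 76694, 84429.8 and 98740.1 CPM in WT and 168831, 178575 and 198539 CPM in Y665F females, a rise of 1.08 log2 ± 0.10 (adjusted p = 5.15e-11). Every Y665F liver was above every WT liver. Serpina6 (chr12:103646630-103657212, minus strand), the corticosteroid-binding globulin of plasma, measured 374, 493 and 641 CPM in WT and 11552, 12829 and 14385 CPM in Y665F females (4.69 log2 ± 0.33, adjusted p = 7.16e-14). Its groups were likewise separate.

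Itih4, an inter-alpha-trypsin inhibitor heavy chain, measured 2489.5, 3158 and 3884 CPM in WT and 7983, 8949 and 11262 CPM in Y665F females (1.54 log2 ± 0.11, adjusted p = 6.91e-14). Cp, the copper carrier ceruloplasmin, measured 911, 963 and 1111 CPM in WT and 3154, 3774 and 4464 CPM in Y665F females (1.95 log2 ± 0.11, adjusted p = 1.27e-16). Lifr, the leukaemia inhibitory factor receptor and no member of the list, measured 670.4, 736 and 824 CPM in WT and 3808, 4010.4 and 5222 CPM in Y665F females (2.55 log2 ± 0.20, adjusted p = 9.23e-13). None of these 3 overlapped. Trf, transferrin, rose by 0.65 log2 ± 0.07 (adjusted p = 4.19e-09).

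Other plasma proteins fell. Ttr, the thyroid hormone carrier transthyretin, measured 3769, 4459 and 4982 CPM in WT and 1745, 1911 and 2342 CPM in Y665F females (-1.15 log2 ± 0.09, adjusted p = 1.59e-12). Serpina3k, a serine protease inhibitor with near-identical copies, measured 4120.1, 6044 and 7113 CPM in WT and 1252, 1895 and 3253 CPM in Y665F females (-1.56 log2 ± 0.21, adjusted p = 1.51e-07). Mug1, a murinoglobulin that also has close copies, measured 3567, 4027 and 5081 CPM in WT and 441, 806 and 1730.0 CPM in Y665F females (-2.29 log2 ± 0.21, adjusted p = 4.4e-11). Reads of such copies could be split between genes by the authors' counting, so these values are uncertain. C9, the pore-forming component of complement, measured 137, 152 and 192 CPM in WT and 4.60, 7.17 and 15.3 CPM in Y665F females (-4.33 log2 ± 0.37, adjusted p = 1.06e-11). C8a and C8b, chains of the same membrane attack complex, fell by 2.65 log2 ± 0.33 and by 3.15 log2 ± 0.24 (adjusted p = 6.66e-08 and 4.15e-13).

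Of 19 tested acute phase genes, 6 were called higher and 0 lower (0 also at an unadjusted p under 0.05, and 0 with DESeq2). Mt2, a metallothionein that binds zinc, measured 31.3, 63.3 and 130.1 CPM in WT and 187, 249.7 and 300.0 CPM in Y665F females (1.73 log2 ± 0.38, adjusted p = 0.000376). The classical members were not called: Saa1 stood at 0.76 log2, Orm1 at -0.06 log2 and Hp at -0.32 log2.

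Male-biased genes, which WT males express above WT females, were mostly lower still in Y665F females. Of 30 tested members 19 were called lower and 1 higher, with a median of -2.13 log2 against -0.02 for all genes, and 17 lay below the WT libraries without overlap. Cyp2d9, a male-biased P450, measured 90.4, 151 and 209 CPM in WT and 4.05, 4.98 and 9.89 CPM in Y665F females (-4.74 log2 ± 0.38, adjusted p = 1.75e-12). Elovl3, a fatty acid elongase, measured 5.39, 6.14 and 8.18 CPM in WT and 0.0744, 0.320 and 0.532 CPM in Y665F females (-4.31 log2 ± 0.35, adjusted p = 2.32e-12). Both separated the groups. The exception was Gstp1, a glutathione transferase, which measured 155, 186 and 227 CPM in WT and 339.7, 426 and 481 CPM in Y665F females (1.16 log2 ± 0.15, adjusted p = 7.7e-08).

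The major urinary proteins, a male-biased family of pheromone carriers with near-identical copies, fell. Of 13 tested members 9 were called lower and 0 higher (0 also at an unadjusted p under 0.05, and 0 with DESeq2). The median was -3.71 log2, or -3.16 log2 with the 2 members that had 0 counts in Y665F females set to their bound. A fit to the 12 libraries alone called 4 lower. Mup7 measured 0.970, 2.05 and 3.38 CPM in WT and 0, 0.0398 and 0.125 CPM in Y665F females (-5.15 log2 ± 1.07, adjusted p = 0.000211). Mup3, the most highly counted of those named here, stood at 1868, 2002 and 2479 CPM in WT and at 363, 637 and 746 CPM in Y665F females (-1.79 log2 ± 0.16, adjusted p = 5.15e-11).

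Female-biased genes moved in both directions. Of 35 tested members 15 were called higher and 10 lower, with a median of 0.24 log2. A1bg, a secreted immunoglobulin-like protein, measured 28.0, 107 and 449 CPM in WT and 2878, 3112 and 3357 CPM in Y665F females (4.29 log2 ± 0.79, adjusted p = 4.34e-05). Sult2a1, a sulfotransferase of steroids and bile acids, measured 0.236, 10.7 and 24.6 CPM in WT and 246, 330.4 and 392 CPM in Y665F females (5.02 log2 ± 0.63, adjusted p = 6.49e-08). Cyp3a16, a female-biased P450, measured 0.368, 6.74 and 90.0 CPM in WT and 379, 537 and 557 CPM in Y665F females (4.71 log2 ± 0.66, adjusted p = 5.57e-07). The WT livers themselves ranged widely in these genes, with the highest WT value in replicate 4 for A1bg and Cyp3a16 and in replicate 3 for Sult2a1, and still no Y665F liver overlapped them. Without WT replicate 4 the rise was 4.93 log2 for A1bg and 6.81 log2 for Cyp3a16.

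Cyp3a41a measured 7.58, 48.3 and 244 CPM in WT and 498, 538 and 688 CPM in Y665F females (2.94 log2 ± 0.56, adjusted p = 5.81e-05). Its copies Cyp3a16 and Cyp3a44 (3.00 log2 ± 0.54) rose too, and reads may be shared among the 3. Without WT replicate 4 the rise was 3.86 log2 for Cyp3a41a and 3.70 log2 for Cyp3a44. Of the female-biased genes that fell, Cyp2b13 had the lowest fold change. It measured 233, 335 and 495 CPM in WT and 6.52, 10.1 and 21.8 CPM in Y665F females (-4.94 log2 ± 0.41, adjusted p = 5.83e-12). Its close relative Cyp2b9 measured 479.7, 670.0 and 727 CPM in WT and 377, 422 and 472 CPM in Y665F females. The groups did not overlap, but the test was not passed in the shared model (-0.58 log2 ± 0.38, adjusted p = 0.224). In a fit of edgeR to the 12 libraries alone it was (-0.55 log2, adjusted p = 0.000573).

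Among drug-metabolising P450s and their receptors, 22 of 39 tested genes were called lower and 7 higher, with a median of -0.51 log2. Cyp3a11, a broad-specificity P450, measured 2185, 2408 and 2722 CPM in WT and 84.7, 260.4 and 571 CPM in Y665F females (-2.95 log2 ± 0.28, adjusted p = 1.68e-10). Cyp2e1, which oxidises ethanol, measured 7951, 8538 and 9121 CPM in WT and 4115, 4909 and 5492 CPM in Y665F females (-0.84 log2 ± 0.13, adjusted p = 3.77e-06). Both separated the groups. In the Cyp2c family, whose copies are similar, Cyp2c38 fell by 4.22 log2 ± 0.37 (adjusted p = 1.88e-11). The xenobiotic receptors Nr1i2 (-0.11 log2) and Nr1i3 (-0.07 log2) were not called. Of 39 conjugation enzymes, 14 were called lower and 7 higher, with a median of -0.13 log2. The share called higher is close to the 17.8% of all tested genes.

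**Figure D3:**
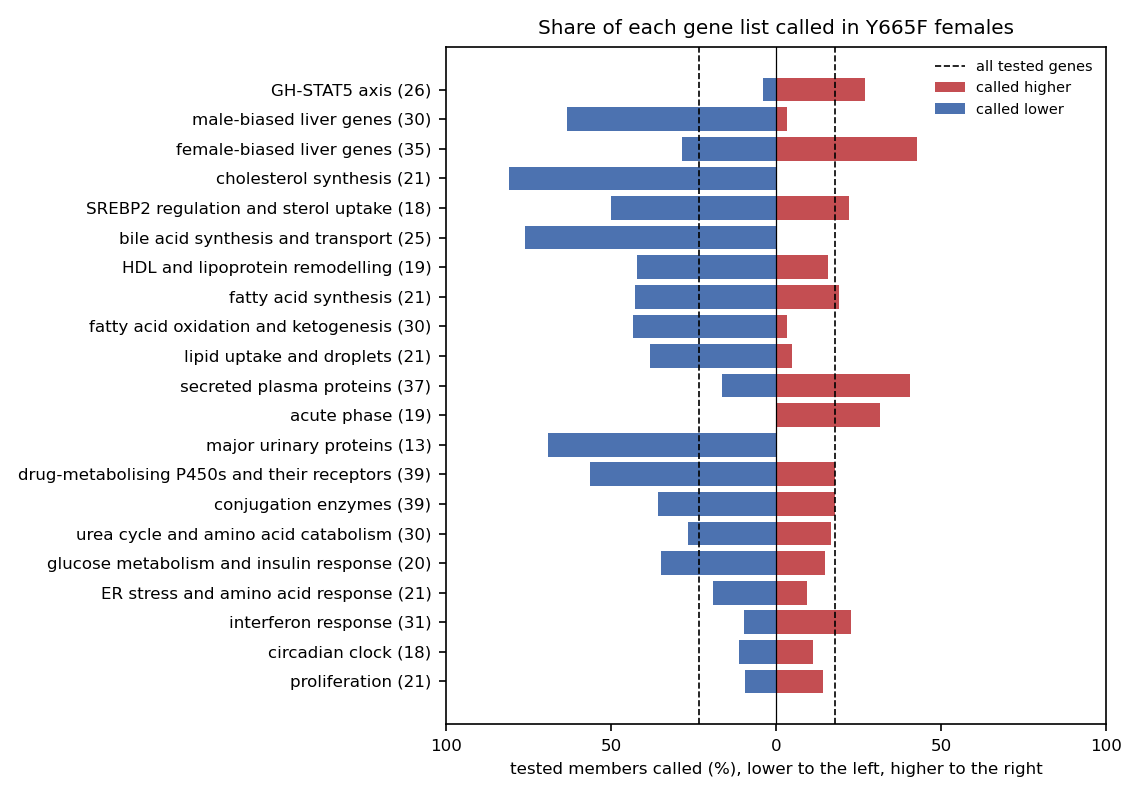
Bars give the share of tested members of each pathway list that was called higher (red, to the right) or lower (blue, to the left) in Y665F against WT females, with the number tested in brackets. Dashed lines mark the shares among all tested genes, 17.8% higher and 23.3% lower; cholesterol synthesis and bile acid genes lie far to the left, and of these lists female-biased genes and secreted plasma proteins extend furthest to the right.

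Most genes of cholesterol synthesis were lower in Y665F females. Of 21 tested genes 17 were called lower and 0 higher (0 also at an unadjusted p under 0.05, and 0 with DESeq2), and the median was -0.84 log2. Of the first steps, Hmgcs1, which makes HMG-CoA, measured 236, 825 and 1147 CPM in WT and 215, 238 and 600.0 CPM in Y665F females (-1.36 log2 ± 0.31, adjusted p = 0.000516). Its groups overlapped. Of the later steps, Idi1, the isomerase of isoprenoid units, measured 33.8, 106 and 152 CPM in WT and 26.7, 31.8 and 72.7 CPM in Y665F females (-1.44 log2 ± 0.29, adjusted p = 0.000121). Sqle (chr15:59315077-59331192, plus strand), the first oxygen-requiring step toward sterols, measured 51.4, 207 and 241 CPM in WT and 35.1, 53.1 and 119.9 CPM in Y665F females (-1.60 log2 ± 0.31, adjusted p = 7.47e-05). The groups overlapped for both of these genes.

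No gene of this list separated the groups completely, and 2 livers stood apart. WT replicate 1 summed to 3521 CPM over the 21 genes where the other WT livers summed to 5293 to 7475 CPM, and Y665F replicate 2 summed to 5244 CPM where the others summed to 2882 to 3350 CPM. Left out in turn, each gave 19 genes called lower, with medians of -0.95 log2 without the WT and -1.03 log2 without the Y665F liver. The 4 genes not called were Pmvk, Mvd, Ggps1 and Tm7sf2, with values from -0.46 to -0.19 log2. Of the regulators, Srebf2, the transcription factor that drives the pathway, measured 97.8, 139 and 167 CPM in WT and 70.0, 74.3 and 96.4 CPM in Y665F females (-0.84 log2 ± 0.11, adjusted p = 2.57e-07), with no overlap. Insig1, its retention factor and target, measured 385, 527 and 694 CPM in WT and 231, 331 and 369.7 CPM in Y665F females (-0.78 log2 ± 0.17, adjusted p = 0.000332). In the list of SREBP2 regulation and sterol uptake as a whole, 9 of 18 tested genes were called lower and 4 higher, the latter 2 on total counts.

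Sterol-responsive promoters carry a sterol regulatory element, and the letters TCACNCCAC (both strands) were found before 1.34% of tested genes with a promoter in the table. They stood before 1 of 16 such genes of cholesterol synthesis, Hmgcs1, and 0 of 12 of SREBP2 regulation and sterol uptake. The Hmgcs1 promoter (chr13:119690101-119690350, plus strand, GRCm38.p6 from RefSeq) is shown because it holds that single match, in capitals.
Hmgcs1: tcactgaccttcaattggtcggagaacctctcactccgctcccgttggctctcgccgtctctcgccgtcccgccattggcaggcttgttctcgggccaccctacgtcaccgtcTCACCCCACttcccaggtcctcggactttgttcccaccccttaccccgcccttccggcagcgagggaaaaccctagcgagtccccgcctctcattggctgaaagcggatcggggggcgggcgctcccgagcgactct

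Bile acid genes fell at uptake, export and the alternative synthesis route, and the classical entry enzyme was not called. Of 25 tested genes 19 were called lower and 0 higher (0 also at an unadjusted p under 0.05, and 0 with DESeq2), the median was -0.59 log2, and 15 separated the groups. Cyp7a1, the rate-limiting enzyme of the classical route, measured 215, 386 and 495 CPM in WT and 264, 399 and 598 CPM in Y665F females (0.09 log2 ± 0.34, adjusted p = 0.851). Cyp8b1, which sets cholic acid output, was not called either (0.16 log2 ± 0.25). Cyp39a1, an oxysterol hydroxylase of the alternative route and a female-biased gene, measured 27.7, 31.9 and 38.1 CPM in WT and 5.65, 6.92 and 9.84 CPM in Y665F females (-2.12 log2 ± 0.19, adjusted p = 3.06e-11). Its groups were separate.

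Transporters fell on both faces of the hepatocyte. Slc10a1 (NTCP), the sodium-dependent uptake carrier, measured 629.6, 753 and 826 CPM in WT and 263, 293 and 423 CPM in Y665F females (-1.27 log2 ± 0.09, adjusted p = 5.4e-14). Abcc3, which returns bile acid conjugates to blood, measured 621, 718 and 764 CPM in WT and 111, 169 and 303 CPM in Y665F females (-1.86 log2 ± 0.17, adjusted p = 4.63e-11). Abcb11, the bile salt export pump, measured 530.3, 657 and 737 CPM in WT and 355, 424 and 482 CPM in Y665F females (-0.59 log2 ± 0.09, adjusted p = 5e-06). The 3 transporters separated the groups. Nr1h4, the bile acid receptor FXR, fell by 0.79 log2 ± 0.08 (adjusted p = 5.22e-10), its target Nr0b2 by 1.04 log2 ± 0.29 (adjusted p = 0.00412), and Fgfr4, the receptor of the gut signal that restrains synthesis, by 0.69 log2 ± 0.08 (adjusted p = 9.25e-09).

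**Figure D4:**
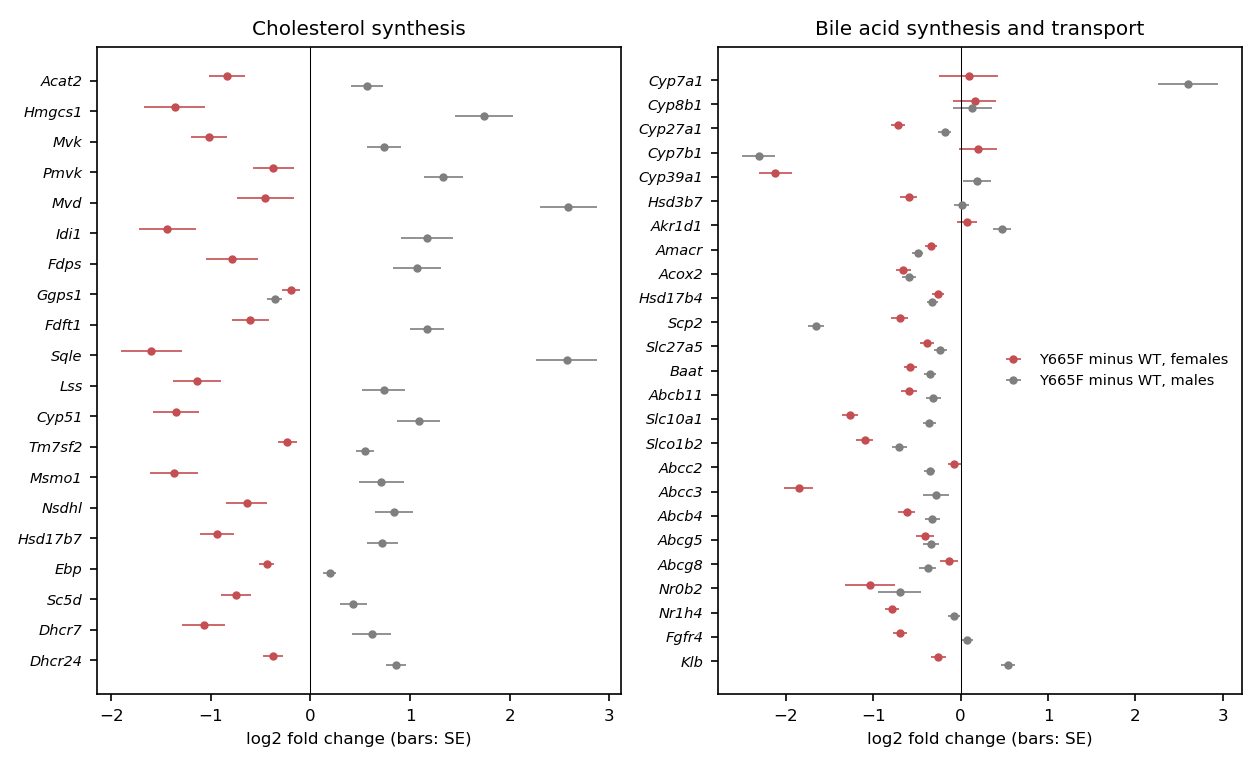
Points are log2 fold changes (Y665F minus WT) with SE bars for genes of cholesterol synthesis (left, 20 of the 21 tested) and of bile acid synthesis and transport (right, 25 genes), in females (red) and males (grey). All 20 female points on the left lie below 0, with 16 called, whereas 19 of the male points lie above 0; on the right, 19 female points were called lower, and the male points of Cyp7a1 and Cyp7b1 lie far to opposite sides of the female ones.

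Lipoprotein genes split. Of 19 tested genes of HDL and lipoprotein remodelling 8 were called lower and 3 higher (6 higher with the share of items in no gene as a covariate). Lipc, hepatic lipase, measured 146, 183 and 192 CPM in WT and 35.4, 47.5 and 50.2 CPM in Y665F females (-1.94 log2 ± 0.09, adjusted p = 8.79e-19). Apoa4, an apolipoprotein that rises with liver triglyceride, measured 107, 123 and 164 CPM in WT and 258, 316 and 388 CPM in Y665F females (1.31 log2 ± 0.17, adjusted p = 9.91e-08). Both separated the groups. Apoa1, the main HDL protein, fell by 0.51 log2 ± 0.14 (adjusted p = 0.00508), and Apob, the protein of VLDL and LDL, did not pass the test (-0.09 log2 ± 0.07, adjusted p = 0.342).

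In fatty acid synthesis 9 of 21 tested genes were called lower and 4 higher, with a median of -0.38 log2. Scd1, the stearoyl-CoA desaturase, measured 2953, 3600.2 and 5907 CPM in WT and 205, 526 and 872 CPM in Y665F females (-3.03 log2 ± 0.37, adjusted p = 4.37e-08), with no overlap. Fasn, fatty acid synthase, measured 666, 1173 and 2386 CPM in WT and 467, 638 and 762 CPM in Y665F females (-0.98 log2 ± 0.31, adjusted p = 0.0107). Its highest value came from WT replicate 2, without which the adjusted p was 0.0756 and 6 genes of the list were called lower. Pnpla3, a lipid droplet protein listed with synthesis, measured 1.05, 2.01 and 7.73 CPM in WT and 8.58, 13.7 and 21.3 CPM in Y665F females (2.35 log2 ± 0.49, adjusted p = 0.00019), without overlap. Without WT replicate 2 its rise was 3.01 log2. Fads1, a polyunsaturated fatty acid desaturase, rose by 1.12 log2 ± 0.11 (adjusted p = 2.91e-10). Srebf1, the transcription factor of the pathway, was not called (-0.10 log2 ± 0.18, adjusted p = 0.699).

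Fatty acid oxidation and ketogenesis had 13 of 30 tested genes called lower and 1 higher, with a median of -0.21 log2. On total counts 20 were called lower, and with the covariate 4 higher. Cyp4a14, a female-biased omega-hydroxylase with close copies, measured 316, 549.6 and 843 CPM in WT and 5.14, 15.3 and 60.6 CPM in Y665F females (-4.64 log2 ± 0.61, adjusted p = 1.35e-07), with no overlap. Its relative Cyp4a31 was the member that rose (1.53 log2 ± 0.26, adjusted p = 1.17e-05). The regulator Ppara (0.07 log2 ± 0.13) and Cpt1a, the carnitine gate of mitochondria (-0.23 log2 ± 0.13, adjusted p = 0.150), did not pass the test. Among genes of lipid uptake and droplets 8 of 21 were called lower and 1 higher. The latter was Cd36, a fatty acid carrier, with 24.0, 43.3 and 53.7 CPM in WT and 93.6, 114 and 158 CPM in Y665F females (1.53 log2 ± 0.26, adjusted p = 1.18e-05) and no overlap. Hsd17b13, a droplet protein, fell by 1.51 log2 ± 0.10 (adjusted p = 6.64e-15).

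Of 20 tested genes of glucose metabolism and insulin response 7 were called lower (12 on total counts) and 3 higher. Irs2, an insulin receptor substrate, rose by 0.73 log2 ± 0.25 (adjusted p = 0.0188). Without Y665F replicate 6, Irs2 was no longer called (edgeR quasi-likelihood adjusted p = 0.0772). In amino acid catabolism and the urea cycle 8 of 30 were called lower and 5 higher (9 higher with the covariate). Tat, a glucocorticoid-induced transaminase, rose by 0.98 log2 ± 0.21 (adjusted p = 0.000399), while Tdo2, which opens tryptophan breakdown, fell by 0.86 log2 ± 0.11 (adjusted p = 8.55e-08). The circadian clock list was called at 2 higher (6 in a fit to the 12 libraries alone) and 2 lower of 18, and the list of endoplasmic reticulum stress at 2 higher and 4 lower of 21. On total counts the latter had 1 gene called higher and 10 lower, and in the fit to the 12 libraries 4 higher and 2 lower. The share called was 50% for the glucose list, 22.2% for the clock and 28.6% for the stress list, against 41% of all tested genes.

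Markers of lymphocytes were higher in Y665F livers. All 15 tested T and NK cell genes were called higher, with a median of 1.20 log2, and their summed level was 6.17 to 9.18 CPM in WT and 15.8 to 22.6 CPM in Y665F females. All 7 tested B and plasma cell genes were called higher (median 1.12 log2), with sums of 6.23 to 10.1 CPM and 13.0 to 26.3 CPM. Thinned to the depth of the shallowest library, 12 and 6 were called. Cd8a, the co-receptor of cytotoxic T cells, measured 0.127, 0.343 and 0.430 CPM in WT and 0.903, 1.57 and 1.83 CPM in Y665F females (2.31 log2 ± 0.27, adjusted p = 1.99e-08). The groups did not overlap. In whole liver, more cells of a type and more RNA per cell cannot be told apart.

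Myeloid markers were less uniform. Of 7 monocyte genes 5 were called higher (3 on total counts) and 1 lower, the latter Fn1, which hepatocytes also express. Of 11 neutrophil genes 4 were called higher, where a fit to the 12 libraries alone called 1 and the fit without WT replicate 4 called 6. None of 11 Kupffer cell and macrophage genes was called by edgeR (1 higher at an unadjusted p under 0.05, 0 with DESeq2), and Clec4f, their defining lectin, stood at 0.25 log2 ± 0.17 (adjusted p = 0.244). Of 9 genes of sinusoidal endothelium 2 were called higher, of 11 genes of stellate cells 1 lower (4 on total counts), and of 7 genes of cholangiocytes 2 lower. Of 8 hepatocyte markers 3 were called higher and 4 lower, and of those the ranges and medians of Alb and Ttr are given above. Among pericentral hepatocyte markers 2 of 11 were called higher and 3 lower, and among periportal ones 1 of 10 higher and 3 lower (7 lower on total counts). Of all tested genes 17.8% were called higher and 23.3% lower. The counts for endothelium, cholangiocytes and pericentral markers lie near or below these shares.

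**Figure D5:**
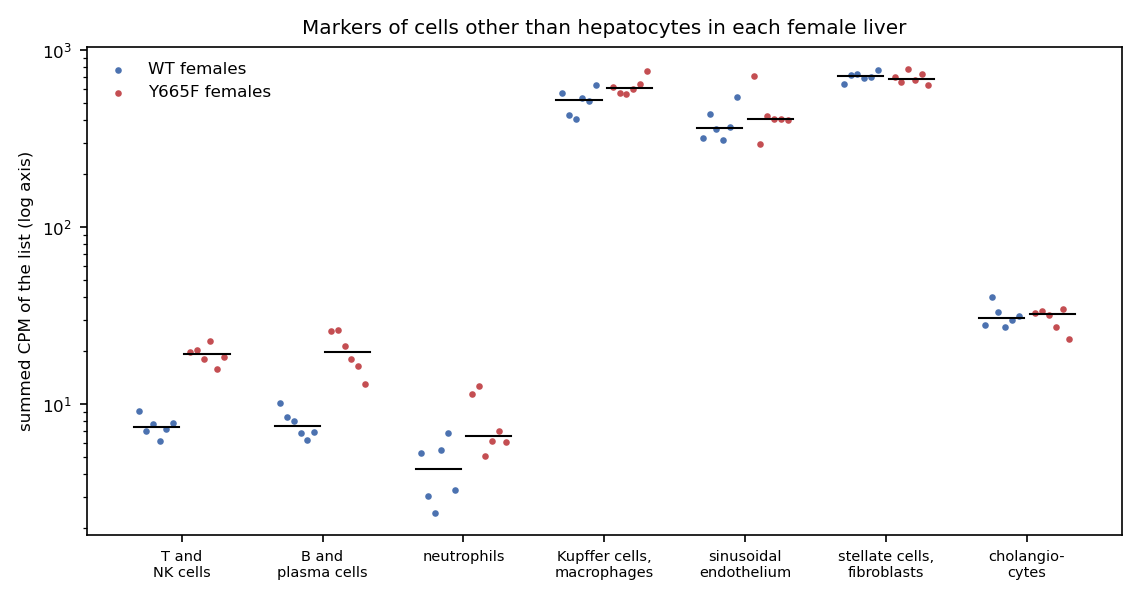
Points are the summed CPM (log axis) of the tested marker genes of 7 cell types in each WT (blue) and Y665F (red) female liver, with the group median as a black line; monocyte genes are left out because Fn1 makes up nearly all of their sum. The T and NK sums are 6.17 to 9.18 CPM in WT and 15.8 to 22.6 CPM in Y665F livers and do not overlap, nor do those of B and plasma cells, whereas the other types overlap.

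Proliferation and interferon genes were examined beside these markers. In the proliferation list 3 of 21 tested genes were called higher and 2 lower, and 8 were called higher in a fit to the 12 libraries alone. Mki67, a marker of cycling cells, measured 3.89, 4.54 and 6.26 CPM in WT and 11.3, 17.2 and 17.6 CPM in Y665F females (1.73 log2 ± 0.31, adjusted p = 2.3e-05). Ccnd1, cyclin D1 of the early cycle, measured 147, 169 and 253 CPM in WT and 86.4, 102 and 115 CPM in Y665F females (-0.88 log2 ± 0.20, adjusted p = 0.000443). Neither overlapped. In the interferon list 7 of 31 were called higher and 3 lower, 3 and 7 on total counts and 12 higher in the fit to the 12 libraries, with Oas2 highest (0.97 log2 ± 0.20, adjusted p = 0.000171) and Usp18 lowest (-0.76 log2 ± 0.18, adjusted p = 0.000984). Of the proliferation list 23.8% was called and of the interferon list 32.3%, against 41% of all tested genes. The part of the lymphocyte signal in these changes was not tested.

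The effect of Y665F was then compared between the sexes, as the change in females minus the change in males, with 9 Y665F and 6 WT males. It differed for 4190 of 15152 genes (27.7%), with the female value higher for 1743 (11.5%) and lower for 2447 (16.1%). On total counts 5021 genes were called, 1193 of them higher. Male libraries held 49141951 to 73937726 gene counts and did not overlap the female libraries, so depth and sex cannot be told apart here. Thinned to the shallowest library 2962 genes were called, and with the share of items in no gene as a covariate 2602.

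The receptors differed in opposite directions. Ghr rose by 0.74 log2 in males (adjusted p = 5.29e-06) against 1.96 log2 in females, a difference of 1.22 ± 0.18 (adjusted p = 2.81e-06). Prlr rose by 3.79 log2 in males, so the difference was -1.41 ± 0.25 (adjusted p = 4.88e-05), and Y665F males stood at 646, 1356 and 1863 CPM. Socs2 rose by 3.14 log2 in males (adjusted p = 1.88e-09), from 5.08, 9.47 and 25.8 CPM in WT to 55.5, 98.0 and 221 CPM, and the sexes differed by -2.73 ± 0.46 (adjusted p = 3.02e-05). Bcl6 fell by 2.20 log2 in males (adjusted p = 3.49e-09), a difference of 2.36 ± 0.39 (adjusted p = 1.77e-05). Cux2 rose by 7.13 log2 in males, a difference of -5.42 ± 0.50 (adjusted p = 2.35e-10).

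Female-biased genes were compared between the sexes as well. The sexes differed for 49.7% of all genes within WT and for 43.1% within Y665F mice (7537 and 6526 genes). With the covariate the order turned, at 4379 genes within WT and 6818 within Y665F mice. Within WT, 33 of 35 tested members were higher in females (26.8% of all genes were) and 0 higher in males. Within Y665F mice, 2 were higher in females (20.3%) and 12 in males (22.8%). These lists were written as sex-biased, so the first count is a check of the list. In males, where Y665F altered 52.5% of all genes, 32 of 35 rose (27.2% of all genes did), and the female effect was the lower for 33. A1bg stood at 0.0461, 0.113 and 0.657 CPM in WT males and at 2588, 3795 and 4507 CPM in Y665F males, so that the effect in females was lower by 9.95 log2 ± 1.28 (adjusted p = 3.31e-07). Cyp2b13 rose by 8.81 log2 in males and fell in females, a difference of -13.75 ± 0.69 (adjusted p = 5.97e-17). Y665F males had 31.6, 60.7 and 153 CPM of it, above every Y665F female.

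Differences were of the same sign for Cyp3a41a (-11.26), Cyp3a16 (-8.44), Sult3a1 (-12.06), Cyp2b9 (-6.03) and Cyp39a1 (-2.31). For Sult2a2 and Sult2a5 the WT males held 0 counts, so no fitted difference is given. Most male-biased genes fell in males too, 29 of 30 (25.3% of all genes). Within WT 29 of 30 were higher in males (23%), and within Y665F mice 12 were higher in males and 5 in females. Cyp2d9 fell by 6.67 log2 in males (difference 1.93 ± 0.44, adjusted p = 0.00123) and Elovl3 by 7.20 log2 (difference 2.89 ± 0.56, adjusted p = 0.000206). Gstp1 fell by 2.14 log2 in males and rose in females (difference 3.30 ± 0.20, adjusted p = 8.29e-15).

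Cholesterol synthesis went opposite ways in the sexes. In males 19 of 21 genes rose and 1 fell (median 0.74 log2), and 20 had a lower effect in females. Sqle rose by 2.57 log2 in males (adjusted p = 8.67e-09), from 15.8, 17.4 and 19.6 CPM to 57.2, 92.6 and 197 CPM, and the sexes differed by -4.17 ± 0.43 (adjusted p = 3.61e-09). The differences were -3.10 ± 0.42 for Hmgcs1 and -1.52 ± 0.15 for Srebf2 (adjusted p = 8.58e-07 and 2.51e-09). Within WT 20 of the 21 genes were higher in females and 1 in males, and within Y665F mice 11 were higher in males. Cyp7a1 rose by 2.60 log2 in males, to 57.8, 169.9 and 336 CPM, a difference of -2.51 ± 0.47 (adjusted p = 0.000133).

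The difference between the sexes was also taken for other lipid genes. The values were -1.70 ± 0.12 for Lipc (adjusted p = 2.03e-13), -0.91 ± 0.12 for Slc10a1 (3.9e-07), -2.44 ± 0.48 for Scd1 (0.000232), -1.42 ± 0.42 for Fasn (0.0106) and -3.05 ± 0.68 for Pnpla3 (0.000913). Lipc and Slc10a1 fell in both sexes, by 0.24 and 0.36 log2 in males. Cyp4a14 was not called in males (0.36 log2, adjusted p = 0.550) and differed by -5.0003 ± 0.76 (adjusted p = 5.72e-06). Sult2a7 (-6.87), Adgrf1 (-3.37), Mt2 (-4.95) and Ccnd1 (-3.17) differed in the same direction. Ccnd1 rose by 2.29 log2 in males and fell in females. Higher female effects were seen for the cytokine gene Tnfsf15 (4.97), the glutamate receptor Grm8 (6.46) and Cml5 (6.29). The latter pair was not called in females and fell in males, by 5.20 and 7.38 log2.

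Kupffer cell markers, none of which was called in females, rose in males: 11 of 11 were called higher there and 11 of 11 differed between the sexes, with the female effect lower. Within WT all 11 were higher in females (26.8% of all genes were), and within Y665F mice 0 were called between the sexes. Of 31 interferon genes, 28 were called higher in males and 22 differed between the sexes in their response. Within WT 21 of these 31 were higher in females and 1 in males, and within Y665F mice 3 and 8 were. Lymphocyte markers were called in both sexes, 14 of 15 T and NK genes and 7 of 7 B and plasma cell genes in males. Whether the macrophage signal has a part in the interferon difference was not tested.

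Y665F females were also set beside females with histidine at the same residue. The pair differed for 8564 genes (56.5%), 3945 higher in Y665F (26%) and 4619 lower (30.5%), or 2965 and 6127 on total counts. Against WT, Y665H females had 1136 called genes (7.5%), with 4.4% of all genes higher and 3.1% lower. Cholesterol synthesis was lower in Y665F than in Y665H females for 17 of 21 genes (median -0.78 log2), and the median of Y665H against WT was -0.19 log2. Bile acid genes were lower for 20 of 25, and T and NK cell genes higher for 15 of 15. The medians of Y665H against WT were 0.08 log2 for bile acid genes and -0.62 log2 for T and NK genes. Of the latter, 4 were called lower and 0 higher in Y665H against WT females. Both comparisons with WT share the 6 WT livers, so their values are given side by side.

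Single genes showed where the substitutions parted. Cyp3a16 measured 0, 0.192 and 2.70 CPM in Y665H females, a fall of 4.96 log2 against WT (adjusted p = 0.000654) beside the rise of 4.71 log2 in Y665F females. Cyp3a41a fell by 5.53 log2 in Y665H (adjusted p = 1.65e-05) beside a rise of 2.94 log2. In WT, replicate 4 was highest for both genes, at 90.0 and 244 CPM. The WT livers with the least Cyp3a16, at 0.368 and 0.708 CPM, lay within the Y665H range. The Y665H falls without WT replicate 4 were not tested. Cux2 fell by 1.30 log2 (adjusted p = 0.0119) beside a rise of 1.71 log2. Sult2a7 rose by 2.31 log2 in Y665H females (adjusted p = 0.000305), to 11.2, 18.5 and 71.7 CPM, and fell in Y665F females. The direct differences, Y665F minus Y665H, were 9.67, 8.48, 3.01 and -9.08 log2 for these 4 genes (adjusted p = 3.69e-11, 1.21e-11, 2.27e-09 and 7.51e-14).

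Cd36 rose with both substitutions (1.19 log2 in Y665H females, adjusted p = 0.00537), with a direct difference of 0.34 log2 that did not pass the test (adjusted p = 0.255). Gstp1 rose in both too, by 0.57 log2 in Y665H females (adjusted p = 0.0164), and was 0.59 log2 higher in Y665F females (adjusted p = 0.000843). Ghr, Prlr, Alb, Serpina6, Slc10a1 and Lipc were not called in Y665H females, at -0.21 to 0.35 log2. In the direct comparison all 6 were called, at 1.87, 2.59, 1.03, 4.34, -1.21 and -1.90 log2.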

How the data were processed

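Counts per gene were deposited by the authors, 1 file per liver. Per the submitters' processing notes, FastQC 0.11.9, Trimmomatic 0.36, STAR, SAMtools 1.9, Picard 2.9.2 and HTSeq 0.9.1 were used with the build mm10. The annotation, strand setting and filters are not given in the sources used here. Per the labels' protocols, libraries were made from total RNA after ribosomal RNA removal and sequenced as read pairs, and kits of different makers are named without saying which library each served.

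Each file held 24421 genes and 5 rows that name no gene. Those rows took 35.1% ± 1.41 of the items in WT and 36.1% ± 1.07 in Y665F female libraries and were left out of library sizes. The counts of all 37 libraries were fitted together with edgeR 4.0.16 (R 4.3.3) by sex and genotype, with TMM scaling and the filter filterByExpr (minimum count 10, total 15). This left 15152 genes. Contrasts were tested by quasi-likelihood and adjusted by Benjamini-Hochberg over all of them at 0.05. The SE is that of the log2 fold change, and the prior count was 2. Library measures were compared by exact 2-sided permutation tests. The fit was tested on simulated data with known changes. Those data changed few genes, picked at random, and otherwise kept the WT female levels, so they do not cover the dependence on scaling.

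Named genes were, of the called genes, the 12 highest and 12 lowest fold changes (at least 1 CPM in a group, all Y665F libraries above or all below the mean of WT), the 6 largest rises and 6 largest falls in CPM, up to 3 at each end of every pathway list, 5 at each end of the sex difference, and a panel of 43 genes. Some genes the rule names are not reported here. Other list members were named after their values were seen. The members and lists were chosen with earlier results of these data known. Alternatives were DESeq2 1.42.0, other scalings, no filter, a covariate, a replicate block, thinning, the 12 libraries alone and each replicate left out. Replicate numbers were taken from the sample titles, since those in some file names differ. No pair of libraries agreed within counting noise.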

Additional observations from a re-analysis of the deposited data

Results flagged for a closer look

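In 18 of 119 checked groups of 6 livers, 1 liver stood far from the others, where chance nominally gives about 1 in 20. That rate is for independent groups with normally spread values, which these need not be. WT replicate 3 had the highest share of counts in the 10 most abundant genes, 23.6%. WT replicate 5 had the lowest Ghr level, 457 CPM. WT replicate 6 was highest for Hsd3b5 (46.2 CPM) and Mki67 (6.26 CPM). WT replicate 4 was highest for the related P450 genes Cyp3a16 (90.0 CPM) and Cyp3a41a (244 CPM), and WT replicate 2 for the lipogenic genes Fasn (2386 CPM) and Pnpla3 (7.73 CPM).

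Among Y665F livers, replicate 2 stood above the other 5 in 4 sterol genes, Sqle (119.9 CPM), Hmgcs1 (600.0 CPM), Idi1 (72.7 CPM) and Srebf2 (96.4 CPM). The same liver was highest for Slc10a1 (423 CPM) and C9 (15.3 CPM). Replicate 3 was highest for Cyp2b13 (21.8 CPM), Cyp2d9 (9.89 CPM) and Mug1 (1730.0 CPM), and replicate 5 for Sult2a7 (0.156 CPM).

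The effect of Y665F differed between the sexes for 4190 of 15152 genes (27.7%) by the interaction test of edgeR, and the 32 given here were taken from the called ones. Values are the female effect minus the male effect in log2. Among receptors and regulators they were 1.22 for Ghr, -1.41 for Prlr, -5.42 for Cux2, -2.73 for Socs2 and 2.36 for Bcl6. Female-biased genes gave -13.75 for Cyp2b13, -6.03 for Cyp2b9, -9.95 for A1bg, -8.44 for Cyp3a16, -11.26 for Cyp3a41a, -12.06 for Sult3a1, -2.31 for Cyp39a1 and -5.0003 for Cyp4a14. Male-biased genes gave 1.93 for Cyp2d9, 2.89 for Elovl3 and 3.30 for Gstp1. Genes of sterol and bile acid metabolism gave -4.17 for Sqle, -3.10 for Hmgcs1, -1.52 for Srebf2, -2.51 for Cyp7a1 and -0.91 for Slc10a1. Fatty acid and lipoprotein genes gave -2.44 for Scd1, -1.42 for Fasn, -3.05 for Pnpla3 and -1.70 for Lipc. The remaining values were 4.97 for Tnfsf15, 6.46 for Grm8, 6.29 for Cml5, -6.87 for Sult2a7, -3.37 for Adgrf1, -4.95 for Mt2 and -3.17 for Ccnd1. Genes with few counts in WT males, such as Cyp3a41a (11 counts over 6 libraries) and Sult3a1 (9 counts), have values that depend on the prior count.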

How the results depend on the processing

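For Y665F against WT females, 4798 to 7856 genes were called under the other scalings, filters, models and tools, and 5633 to 6225 with 1 liver left out. A fold change of at least 1 log2 unit left 1021 genes there, 996 for the sex difference, 990 and 654 for the sexes within WT and Y665F, and 1703 against Y665H. With the share of items in no gene as a covariate, the sex difference called 2602 genes and the sexes within WT 4379. The cause of these changes was not tested. Of 147 named genes, 23 lost their call under at least 1 alternative and 8 gained one. The latter were Jak2, Igf1, Igfals, Cpt1a and Apob on total counts, Cyp2b9, Sult3a1 and Cpt1a in a fit to the 12 libraries alone, and Grm8 with DESeq2, thinning or library sizes without the 10 most abundant genes. With 1 liver left out, Grm8, Sult3a1 and Igf1 gained a call. Thinned to the shallowest library, 4798 genes were called, so fewer calls were made at that depth. Directions turned for 8 named genes, none of them called: on total counts Stat5b (-0.110), Stat5a (-0.0902), Cyp7a1 (-0.0553) and Ppara (-0.0683), and with the covariate Cyp7a1 (-0.00659). With 1 liver left out, Stat5b ranged from -0.0232 to 0.0876, Stat5a from -0.0109 to 0.0837, Jak2 from -0.0571 to 0.0221, Cish from -0.375 to 0.00234, Cyp7a1 from -0.0574 to 0.206, Cyp8b1 from -0.0268 to 0.291 and Srebf1 from -0.189 to 0.0121.

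Replicate numbers did not pair the samples, with correlations of same-numbered livers from -0.11 to 0.06. With the replicate block 5978 genes were called, and Cish stood at 0.0256 log2. The difference in gene counts (-1034197) ranged from -2555970 to 514529 with 1 liver left out, turning without WT replicate 4 (505386) or Y665F replicate 6 (514529). That in the share of no annotated gene ranged from 1.92 to 2.94 points and passed the threshold without WT replicate 2 (2.94) or 5 (2.63). With Rn45s, the ribosomal RNA precursor, left out of the top 10 genes, a choice made after seeing the data, their share differed by 9.50 points.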
